A study of Capra hircus with 2 samples.

Results

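The miR-34 and miR-449 family is a group of small regulatory RNAs that share 1 seed, the stretch of bases 2 to 8 with which a miRNA pairs with its targets. Its members were sought by name (miR-34a, miR-34b, miR-34c, miR-449a, miR-449b and miR-449c) in the list of conserved goat miRNAs that came with these libraries. Of 346 listed miRNAs 5 belonged to the family. miR-449c, the other of the 6 names, is not in that list and was not analysed here. Reads were given to a member when they matched its listed sequence for at least 18 nt from the 5′ end, whatever their 3′ end. The family was chosen for its measured abundance in the 2 libraries described here, so its fold changes are descriptions and no test was run on them.

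The miR-34 genes are classic targets of the tumour suppressor p53, and their miRNAs restrain the cell cycle by repressing cyclins, cyclin-dependent kinases and other factors that drive proliferation. miR-34b and miR-34c are processed from a common primary transcript, whereas miR-34a has a gene of its own. The miR-449 miRNAs are encoded together in an intron of CDC20B and are known from multiciliated epithelia. In the RefSeq annotation of the goat assembly ARS1.2, used here for gene names and order, MIR34C and MIR34B were neighbours inside the gene C15H11orf88 with BTG4 next to them. MIR34A stood apart, next to GPR157, and MIR449A, MIR449B and MIR449C lay side by side inside CDC20B.

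Small RNA was sequenced from the mammary gland of Xinong Saanen dairy goats 2.5 years old, in 1 library for the dry period (milking stopped) and 1 for peak lactation. Each library was made from RNA pooled from 3 goats, and no treatment or genotype distinguished them. By their labels the dry goats were 75 days and the lactating goats 320 days from lambing, and the study's text has these days exchanged. Stages were therefore taken from the sample titles, on which every direction below depends. The state given in the labels and the stage names of the study's text assign the libraries in the same way as the titles. The clean read totals of the files also equal those the study gives for the libraries of the same stage names.

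With 1 library per stage there is no estimate of the spread between goats. All intervals are 95% intervals and cover counting error only. PCR copies of 1 molecule cannot be recognised in these reads, and where they occur the intervals are too narrow. In whole tissue, fewer cells of a type and less of an RNA per cell cannot be told apart.

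The listed sequences are shown because the members differ mainly behind the seed and because miR-34b and miR-34c must be told apart base by base. They are written 5′ to 3′ as listed with the study, and capitals mark the seed.
miR-34a: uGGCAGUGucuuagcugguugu
miR-34b: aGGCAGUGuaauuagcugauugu
miR-34c: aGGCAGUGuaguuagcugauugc
miR-449a: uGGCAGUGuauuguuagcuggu
miR-449b: aGGCAGUGuauuguuagcuggcu
Of the 346 listed miRNAs, these 5 held the seed GGCAGUG. miR-34a and miR-449a begin with U and are 22 nt long, and the other members begin with A and are 23 nt long. With positions counted from 1 at the 5′ end and the base of the first-named miRNA given first, miR-34b and miR-34c differed by A11G and U23C and were identical at the other 21 positions. miR-449a and miR-449b differed by U1A and U22C over the 22 aligned positions. Aligned from the 5′ end without gaps, miR-34a was identical to miR-34c at 11 of 22 positions and to miR-449a at 15 of 22. No alignment with gaps was made, so these counts do not show which member is nearer to miR-34a.

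There were 14851375 clean dry period reads and 15712891 clean peak lactation reads. Abundance is given as reads per 1000000 clean reads (RPM), and 3 reads, taken as the smallest count to be relied on, were worth 0.202 RPM and 0.191 RPM. Reads of all conserved miRNAs made up 61.1% of the dry period library but 14.4% of the peak lactation library. Per clean read the whole conserved miRNA pool was thus 4.24-fold smaller at peak lactation, a log2 change of -2.08. The choice of denominator therefore moved every fold change, and the members are given on several scales. let-7a and let-7f supplied 58.9% of that pool in the dry period but 45.8% at peak lactation, and without them the pool was 3.22-fold smaller (log2 -1.69). From the same clean read totals the study reports more conserved miRNA reads at peak lactation than were counted here, and fewer in the dry period. Its drop is thus smaller, and its let-7 share at peak lactation is larger. The reason for this gap was not tested, and values per conserved miRNA read rest on the pool as counted here.

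Both miR-34a and miR-34c had fewer reads at peak lactation than in the dry period, and miR-34a had far fewer. miR-34a, the member with its own gene, was counted 139 times in the dry period (9.36 RPM, interval 7.87 to 11.1) against 4 times at peak lactation (0.255 RPM, interval 0.0694 to 0.652). The dry period level lay well above the peak lactation level and the intervals did not overlap. This was 36.8-fold lower at peak lactation (interval 14.0 to 137), a log2 fold change of -5.20 (interval -7.10 to -3.81).

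miR-34c was the most abundant member in both libraries. It was counted 373 times in the dry period (25.1 RPM, interval 22.6 to 27.8) against 97 times at peak lactation (6.17 RPM, interval 5.01 to 7.53). The dry period value was again the higher and the intervals stood apart. miR-34c was 4.07-fold lower at peak lactation (interval 3.25 to 5.14), or -2.02 on the log2 scale (interval -2.36 to -1.70).

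miR-34b, made from the same transcript as miR-34c, was rare. It had 14 reads in the dry period (0.943 RPM, interval 0.515 to 1.58) against 4 at peak lactation (0.255 RPM, interval 0.0694 to 0.652). It was lower at peak lactation with overlapping intervals of the levels, and it stayed just under 1 RPM, the abundance a miRNA had to reach in 1 library to be counted as tested. Its log2 fold change was -1.89 (interval -3.95 to -0.22), close to that of miR-34c.

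The miR-449 members were near the limit of detection in both libraries. miR-449a had 5 reads in the dry period (0.337 RPM, interval 0.109 to 0.786) against 1 at peak lactation (0.0636 RPM, interval 0.00161 to 0.355). miR-449b had 1 read in each library (0.0673 and 0.0636 RPM). Both peak lactation counts lay under the 3-read floor, and no difference between the stages was detectable at this depth. The ratio of peak lactation to dry period was -2.40 on the log2 scale for miR-449a (interval -7.97 to 0.76) and -0.08 for miR-449b (interval -6.38 to 6.21).

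**Figure D1:**
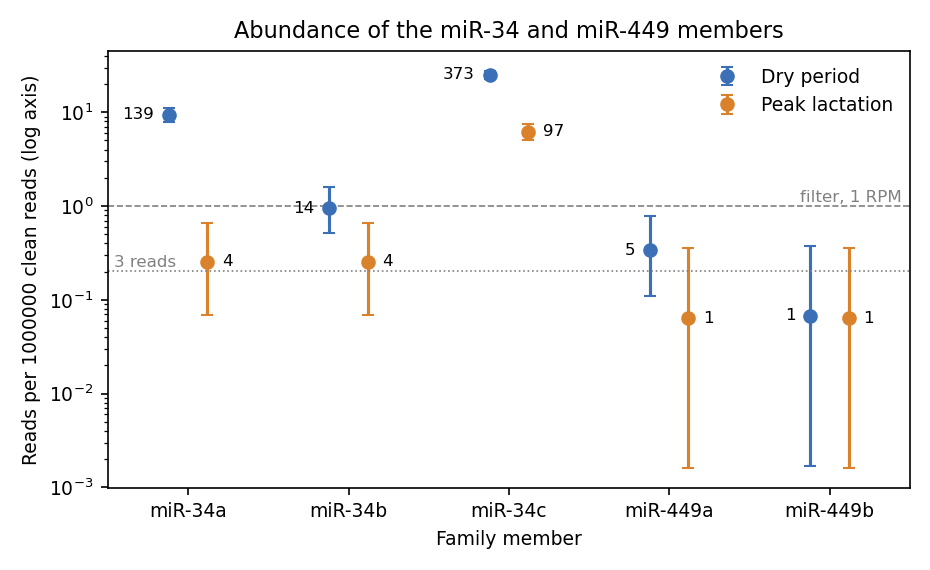
Reads per 1000000 clean reads (log axis) of the 5 family members in the dry period (blue) and peak lactation (orange) libraries, 1 library per stage. Bars are exact Poisson 95% intervals, the number beside each point is its read count, and the lines mark 1 RPM and 3 reads; miR-34c is highest in both libraries, and miR-34a drops from 139 reads to 4.

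Summed over the members, the family had 532 reads in the dry period (35.8 RPM, interval 32.8 to 39.0) against 107 at peak lactation (6.81 RPM, interval 5.58 to 8.23). The sum was 5.26-fold lower at peak lactation (interval 4.27 to 6.54), a log2 fold change of -2.40. Among the 346 listed miRNAs ordered by reads, miR-34c was at place 137 in the dry period against 146 at peak lactation, while miR-34a went from place 174 to 257.

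Of the 5 members, miR-34a and miR-34c reached 1 RPM in at least 1 library and the other 3 did not. Both tested members were more than 2-fold lower at peak lactation against a background of 181 of 257 tested conserved miRNAs (70.4%). miR-34a passed the filter through its dry period level alone, which left lower as the direction in which it could be counted, and miR-34c passed it in both libraries. The median log2 fold change of all 257 was -1.44 (quartiles -2.15 and -0.92), and 247 of them were below 0. A lower level per clean read was therefore common to most tested miRNAs.

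miR-34a and miR-34c were next set against the reads of all conserved miRNAs in the same library. On that scale miR-34a was still lower, with a log2 fold change of -3.12 (interval -5.01 to -1.73). miR-34c stood at 0.06 (interval -0.28 to 0.39) and miR-34b at 0.20 (interval -1.87 to 1.87). The sign for these members turned with the pool: with let-7a and let-7f left out of it, a choice made after seeing the data, miR-34c was at -0.34 (interval -0.68 to -0.01) and miR-34b at -0.20 (interval -2.26 to 1.47), with miR-34a at -3.51 (interval -5.41 to -2.13). The study's own pool fell less, so each member's value per that pool would be lower than with the pool counted here. Those values were not computed. With all conserved miRNA reads as counted here, 1 of the 2 tested members was more than 2-fold lower and 0 were more than 2-fold higher. On that scale 7.39% of the 257 tested miRNAs were more than 2-fold lower and 36.2% were more than 2-fold higher. With TMM factors, which scale by the bulk of the miRNAs, the log2 fold change was -3.90 for miR-34a and -0.73 for miR-34c, and with median-ratio size factors -3.80 and -0.63. The intervals of miR-34c lay below 0 under both, at -1.06 to -0.40 and -0.97 to -0.30.

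**Figure D2:**
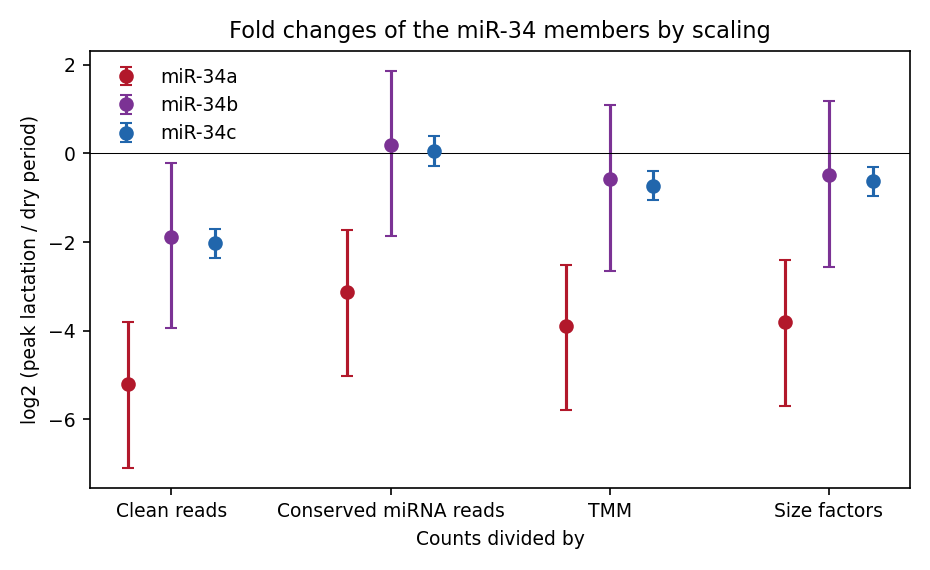
log2 fold change (peak lactation over dry period) of miR-34a, miR-34b and miR-34c when counts are divided by clean reads, by conserved miRNA reads, by TMM effective library size or by median-ratio size factors, with 95% counting intervals. miR-34a lies between -5.20 and -3.12 under the 4 scalings, while miR-34c moves between -2.02 and 0.06.

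Among the 257 tested miRNAs miR-34a had the lowest log2 fold change, and miR-34c was at place 77 from the lowest. A scaling adds the same amount to the log2 fold change of every miRNA, so the 4 scalings could not differ in this order. This order is a description, since the family was selected on the same contrast. There were 58 other tested miRNAs within 2-fold of the dry period count of miR-34a. Their log2 fold changes ranged from -4.80 to 2.34 with a median of -1.50, and none was as low as miR-34a. The lowest of them, miR-181c, had an interval of -6.03 to -3.79, which overlapped that of miR-34a (-7.10 to -3.81). Counting error thus does not separate these 2 values. For miR-34c there were 42 such miRNAs with a median of -1.67, and 16 of them were at or below it.

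**Figure D3:**
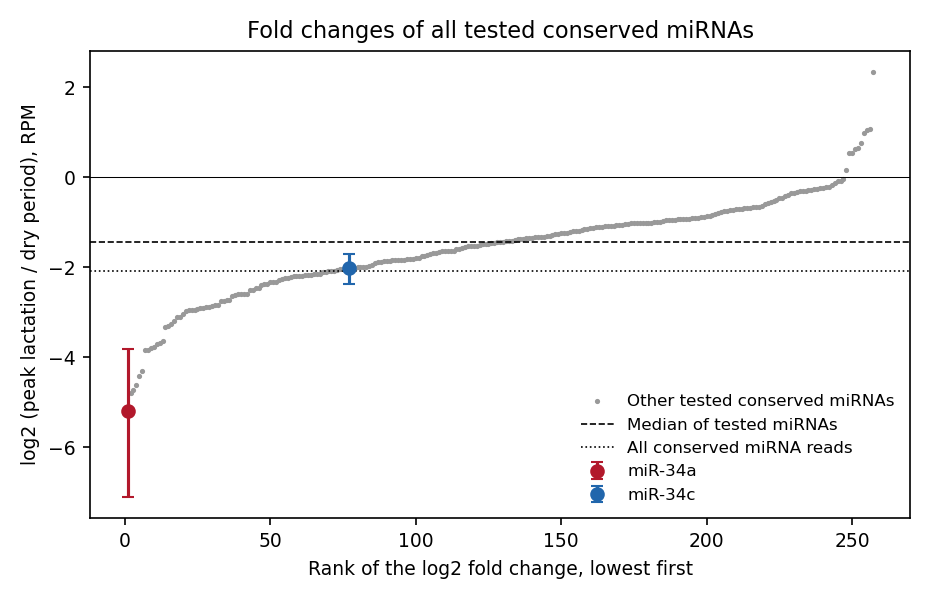
log2 fold change per clean read of the 257 tested conserved miRNAs in ascending order (grey points), with miR-34a (red) and miR-34c (blue) and their 95% counting intervals. The dashed line is the median of the tested miRNAs (-1.44) and the dotted line the change of all conserved miRNA reads (-2.08); miR-34a is the lowest point and miR-34c lies on the dotted line.

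The make-up of the family does not depend on the denominator. miR-34c supplied 70.1% of the family's reads in the dry period (interval 66.0 to 74.0%) against 90.7% at peak lactation (interval 83.5 to 95.4%). miR-34a supplied 26.1% (interval 22.4 to 30.1%) and then 3.74% (interval 1.03 to 9.30%). The share of miR-34c was higher and that of miR-34a lower at peak lactation, with intervals that did not overlap for either. miR-34b stayed a small part, at 2.63% (interval 1.45 to 4.38%) and 3.74% (interval 1.03 to 9.30%).

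There were 0.373 reads of miR-34a for each read of miR-34c in the dry period against 0.0412 at peak lactation. The dry period ratio was 9.04 times the peak lactation ratio (exact conditional interval 3.31 to 34.4). For miR-34b over miR-34c, which share a transcript, the ratios were 0.0375 and 0.0412, and the dry period ratio was 0.910 times the other (interval 0.278 to 3.88). The interval of the miR-34b ratio includes 1, but it is wide, since miR-34b had 4 reads at peak lactation. miR-34a over miR-34b was 9.93 in the dry period against 1 at peak lactation, a 9.93-fold difference (interval 1.62 to 58.1).

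The 3′ ends, which the choice of members did not use, differed between miR-34a and miR-34c in the dry period library. Of the 139 miR-34a reads, 45 (32.4%, exact binomial interval 24.7 to 40.8%) were identical to the listed sequence, 27 (19.4%) were shorter and 59 (42.4%, interval 34.1 to 51.1%) carried the whole sequence and then more bases. A further 8 reads left the listed sequence before its end. Of the 373 miR-34c reads, 132 (35.4%, interval 30.5 to 40.5%) were identical, 179 (48.0%, interval 42.8 to 53.2%) were shorter and 19 (5.09%, interval 3.09 to 7.84%) were longer. miR-34a was thus extended more often than trimmed and miR-34c trimmed more often than extended, and the intervals of the longer share stood far apart.

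The listed form of miR-34a and the extended forms with at least 5 dry period reads are shown to make its extension visible, with the bases past the listed end in capitals and the reads of the dry period and peak lactation libraries following below.
listed end: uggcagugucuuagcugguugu
U added: uggcagugucuuagcugguuguU
UU added: uggcagugucuuagcugguuguUU
A added: uggcagugucuuagcugguuguA
UA added: uggcagugucuuagcugguuguUA
The listed form had 45 and 1 reads, the form with U 30 and 0, and the form with UU 10 and 1. The form with A had 6 and 0 reads and the form with UA 5 and 0. The trimmed forms, not printed, had 12 and 1 reads at 20 nt, 8 and 0 at 19 nt and 7 and 0 at 21 nt, so each of them outnumbered the forms with A and UA. Of the 59 extended miR-34a reads in the dry period, 40 had U alone, 10 had A alone, 9 had both, and 0 had a G or C past the listed end. The extension was 1 nt in 36 reads and at least 2 nt in 23. Without a goat hairpin sequence here, bases copied from the gene and bases added to the finished miRNA cannot be told apart.

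For miR-34c the leading tags are shown because they differ from the listed form at the last base, where miR-34b and miR-34c also differ. Capitals mark a last base other than the listed one.
listed end: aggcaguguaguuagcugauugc
1 nt shorter: aggcaguguaguuagcugauug
2 nt shorter: aggcaguguaguuagcugauu
ending in U: aggcaguguaguuagcugauugU
ending in A: aggcaguguaguuagcugauugA
The listed form had 132 reads in the dry period against 39 at peak lactation. The form 1 nt shorter had 94 and 29 reads and the form 2 nt shorter 54 and 7. The forms ending in U and in A had 19 reads each in the dry period and 5 each at peak lactation. The form ending in U has the last base of miR-34b but the G of miR-34c at position 11.

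The miR-34c ends were much alike in the 2 libraries. At peak lactation 39 of 97 reads (40.2%, interval 30.4 to 50.7%) were identical, 45 (46.4%, interval 36.2 to 56.8%) were shorter and 2 (2.06%, interval 0.251 to 7.25%) were longer, and each interval overlapped that of the dry period. The 4 miR-34a reads at peak lactation were 1 identical, 1 shorter, 1 longer and 1 that left the sequence early, too few to compare. miR-34b had 9 identical and 5 shorter reads in the dry period and 1 and 3 at peak lactation, with 0 longer reads in either.

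By length, miR-34a peaked at its listed 22 nt with 50 of 139 dry period reads (36.0%), followed by 37 reads of 23 nt (26.6%) and 21 of 24 nt (15.1%). miR-34c peaked at its listed 23 nt with 172 of 373 reads (46.1%), followed by 96 reads of 22 nt (25.7%) and 55 of 21 nt (14.7%). Its peak lactation reads kept that order for the leading lengths, with 49 of 97 at 23 nt (50.5%) and 30 at 22 nt (30.9%). miR-34a thus spread above its listed length and miR-34c below it.

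**Figure D4:**
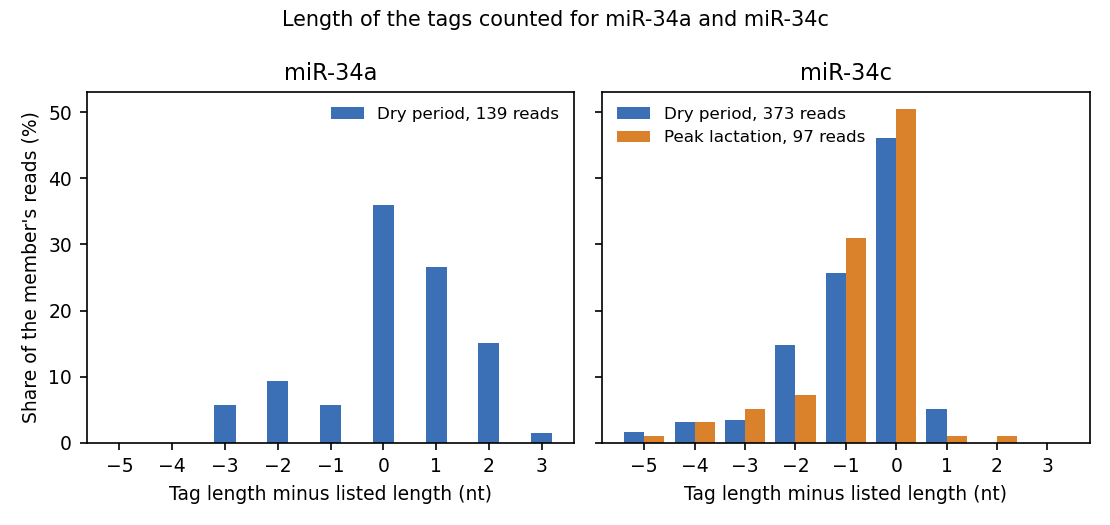
Share of the member's reads (%) by tag length relative to the listed length (nt), for miR-34a in the dry period library (139 reads) and miR-34c in the dry period (blue, 373 reads) and peak lactation (orange, 97 reads) libraries. The 4 miR-34a reads at peak lactation are not drawn. Of the miR-34a reads drawn, 15.1% are exactly 2 nt longer than the listed length, and miR-34c reads lie mostly at or below it.

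Set against the 189 tested miRNAs with at least 100 dry period reads, the longer share of miR-34a was high and that of miR-34c low. The median longer share was 21.0% (quartiles 8.79 and 40.4%), with 37 miRNAs above miR-34a and 157 above miR-34c. The identical share had a median of 44.1% (quartiles 34.2 and 56.1%), with 147 above miR-34a and 135 above miR-34c. For both members the reads identical to the listed sequence were thus a minority, as they were at the median of these miRNAs.

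The 5′ end sets the seed, and nearly all reads of miR-34c began at the listed base. Reads that began 1 or 2 nt away from it were 1 of 374 for miR-34c in the dry period (0.267%, interval 0.00677 to 1.48%) and 6 of 145 for miR-34a (4.14%, interval 1.53 to 8.79%). For miR-34b they were 5 of 19 (26.3%, interval 9.15 to 51.2%), all starting 1 nt early. The miR-34b share was the highest of the 3 on few reads, and its interval did not overlap those of the others. At peak lactation 0 reads of any member started elsewhere. The leading early tag of miR-34b, with 3 reads, is shown with its shifted seed in capitals.
early start: uAGGCAGUguaauuagcugau
Its bases 2 to 8 read AGGCAGU in place of GGCAGUG. The reads of miR-34a outside the listed start were 5 that began 1 nt early and 1 that began 1 nt late.

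The assignment of reads to miR-34b and miR-34c rested on position 11, with A in miR-34b and G in miR-34c. Of the reads with A there that reached position 23, all 9 in the dry period and the 1 at peak lactation had the U of miR-34b. Of those with G, 151 and 41 had the C of miR-34c, 19 and 5 had U, and 19 and 5 had A. No read joined the A of miR-34b with the C of miR-34c. Another 2 dry period reads had U at position 11 (A11U against miR-34b, G11U against miR-34c) and were left out of both.

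Reads with 1 mismatch to a member were few. There were 4 in the dry period for miR-34a (2.80% of its reads with them included, interval 0.767 to 7.01%) and 10 for miR-34c (2.61%, interval 1.26 to 4.75%). At peak lactation there were 1 and 3. The substitution with the most reads for miR-34c was A5G, with 2 dry period reads, beside the G11U reads named above. No tag matched a member for 15 to 17 nt and then left it, and 6 dry period and 2 peak lactation reads matched for exactly the required 18 nt.

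Tags with GGCAGUG at bases 2 to 8 carry the family's seed, but whether those outside the members act as miRNAs was not tested. There were 671 such reads in the dry period against 195 at peak lactation. The members made up 532 of them in the dry period (79.3%, interval 76.0 to 82.3%) against 107 at peak lactation (54.9%, interval 47.6 to 62.0%). The share was lower at peak lactation and the intervals did not overlap. As the family was chosen on its abundance, this is a description. Of the other reads, 7 and 3 were 1 mismatch from a member and 0 belonged to another listed miRNA. The rest, 132 and 85 reads, fell into 164 different tags, none with more than 6 reads in the dry period or 12 at peak lactation.

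The tested miRNAs with the log2 fold change nearest to that of miR-34a, among 220 with at least 50 reads over both libraries, were miR-181c, miR-181d and miR-183. miR-181c had 210 and 8 reads (-4.80) and miR-181d had 1179 and 47 (-4.73), both of the miR-181 family. miR-183, of the cluster known from sensory cells, had 101 and 5 reads (-4.42). The intervals of miR-181c (-6.03 to -3.79), miR-181d (-5.18 to -4.31) and miR-183 (-6.07 to -3.15) all overlapped that of miR-34a. For miR-34c they were miR-361 with 385 and 100 reads (-2.03), miR-339 with 1824 and 477 (-2.02) and miR-450 with 136 and 35 (-2.04). These likenesses rest on 2 libraries.

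Other miRNAs are tied to p53, either induced by it or processed with its help. All 10 of a list of these (miR-107, miR-143, miR-145, miR-15a, miR-16a, miR-16b, miR-192, miR-194, miR-200c and miR-215) were tested, and 6 were more than 2-fold lower and 0 more than 2-fold higher at peak lactation, no larger a share than the 70.4% lower among all tested miRNAs. Their median log2 fold change was -1.19, against -1.44 for all tested miRNAs. The lowest was miR-145, a miRNA of smooth muscle, with 3301 RPM in the dry period against 488 at peak lactation (-2.76), and the highest was miR-107, with 6658 and 5593 RPM (-0.25). Per conserved miRNA read 0 of the 10 were more than 2-fold lower and 5 were more than 2-fold higher, beside 7.39% and 36.2% of all tested miRNAs. As miR-34a was the lowest of all tested miRNAs, any such list lies above it. miR-16a and miR-16b were counted from the same tags and are not independent.

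Markers of the cell types a mammary sample can hold differed between the libraries as well, by summed RPM and by the log2 change of that sum per clean read and per conserved miRNA read. The 6 epithelial miRNAs (miR-200a, miR-200b, miR-200c, miR-141, miR-429 and miR-205) summed to 2687 RPM in the dry period against 1342 at peak lactation, 1.08 per conserved miRNA read, so the tissue label had its epithelial markers in both libraries. The 3 fibroblast miRNAs (miR-199a-3p, miR-199a-5p and miR-214) went from 10096 to 1311 RPM (-2.945 per clean read, -0.86 per conserved miRNA read). Of the marker sums, not computed with TMM or size factors, theirs was the one lower on both scales. miR-199a-3p alone made up 9963 and 1284 RPM of that sum. Per conserved miRNA read miR-199a-5p was at -0.17 and miR-214 at -0.37, and 0 of the 3 were more than 2-fold lower. In other lists the single markers miR-145 (-0.67), miR-206 (-0.52) and miR-223 (-0.24) were also lower on both scales. The 4 leukocyte miRNAs went from 481 to 176 RPM (-1.45 and 0.63) and miR-126 of endothelium from 113 to 67.6 (-0.74 and 1.34). The 3 of red blood cells went from 110 to 190 RPM (0.79 and 2.87), higher on both scales.

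Some of these sums rested on 1 member. The 2 smooth muscle miRNAs went from 11846 to 5199 RPM (-1.19 and 0.90), with miR-143 at -0.86 and miR-145 at -2.76 per clean read. The 4 of striated muscle went from 7241 to 3847 RPM (-0.91 and 1.17), of which miR-1 made up 7175 and 3835. The other striated muscle miRNAs were at -1.33 (miR-133a), -1.89 (miR-133b) and -2.60 (miR-206) per clean read. No marker was at 0 in either library, and the part of cell make-up in the change of miR-34a and miR-34c was not tested.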

How the data were processed

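Mammary gland small RNA was sequenced on the Solexa platform in 1 dry period and 1 peak lactation library, each from pooled RNA of 3 goats. The authors removed low-quality, adaptor, poly(A) and short reads, collapsed identical reads and deposited the raw count of clean reads of each tag, with no normalization and no alignment.

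Each tag was counted for the listed conserved miRNA with the longest identical 5′ stretch of at least 18 nt. Counts were divided by clean reads and multiplied by 1000000 (RPM), with 0.01 RPM in place of 0. A miRNA was tested when it reached 1 RPM in at least 1 library. Called means past 2-fold. Without replicates no count model or p-value was used. Intervals are exact Poisson (RPM), Clopper-Pearson (shares, and the split of reads behind a fold change) and exact conditional (ratio of ratios), at the 95% level. The listed count columns and fold changes of the study were not used.

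The members, the p53-linked list and the marker lists were chosen with earlier results of these data known. The miRNAs named are all members, the 3 tested miRNAs with at least 50 reads nearest in log2 fold change to miR-34a and to miR-34c, and the p53-linked list by its counts with its highest and lowest values.

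Alternatives were identical tags, a 20 nt stretch, 1 mismatch, starts shifted by up to 2 nt, division by conserved miRNA reads, TMM (edgeR 4.0.16), size factors (DESeq2 1.42.0), 1 read added, no filter, a 5 RPM filter and each unique tag counted once. The counting rules applied to the ratio of miR-34a to miR-34c, and the pool of conserved miRNA reads without let-7a and let-7f, were added after seeing the data. Python 3.11.15, numpy 2.4.6, scipy 1.17.1, matplotlib 3.10.9 and R 4.3.3 were used. The counting and the fold changes were run on simulated data. The expected counts there came from the same assignment rule, so that rule itself was not tested.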

Additional observations from a re-analysis of the deposited data

How the results depend on the processing

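The log2 fold change of the summed family, -2.40 per clean read, was -0.31 per conserved miRNA read, -0.71 with let-7a and let-7f left out of that pool (added after seeing the data), -1.10 with TMM and -0.999 with size factors, as the pool of conserved miRNAs was itself smaller at peak lactation. Per conserved miRNA read miR-34b stood at 0.20 and miR-34c at 0.060, and miR-449b, with 1 read in each library, at 2.00 (1.60 without let-7a and let-7f, 1.22 with TMM, 1.31 with size factors). With identical tags miR-449b was at 2.67 per clean read, a value set by the 0.01 RPM used in place of its 0 dry period reads. The 2 tested members more than 2-fold lower became 1 under each of these 4 scalings, and the 181 of 257 conserved miRNAs became 19, 36, 52 and 47. Without a filter 4 of 5 members were more than 2-fold lower, beside 241 of 346 conserved miRNAs (69.7%). With 1 mismatch or shifted starts miR-34b passed the filter and 3 of 3 tested members were more than 2-fold lower. Beside them were 185 of 266 (69.5%) and 186 of 264 (70.5%) conserved miRNAs. Under 1 mismatch miR-34b passed through 2 reads that were counted for miR-34c too. Conserved reads, TMM and size factors moved the median of the tested miRNAs by 2.08, 1.30 and 1.40. Identical tags alone gave the family 12.6 RPM in the dry period against 2.67 at peak lactation. The ratio of miR-34a to miR-34c, 9.04 times higher in the dry period, was 7.47 to 13.3 times higher under the other counting rules. With each unique tag counted once, 5.88% of miR-34a and 6.67% of miR-34c tags were identical to the listed sequence, and 20% of miR-34c tags were longer. Of 45 values of single members under alternatives, 31 stayed inside the counting interval with the same sign, 7 moved outside it and 7 changed sign. The 4 reads of miR-34a and of miR-34b at peak lactation, and the single reads of the miR-449 members, set the precision. No paired analysis was possible because each stage has 1 library, and for the same reason none could be left out.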
